A study of Mus musculus with 2 samples.

Results

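miR-22-3p and miR-22-5p are the miRNAs cut from the 3' and the 5' arm of 1 mouse hairpin, mir-22. They were chosen by name, because the reads of the hairpin are among the most numerous in these libraries, and they are 2 of the 1125 miRNAs listed in at least 1 of the 2 libraries. The choice used the reads of both libraries and the share of reads from the 3p arm, so levels, ratios and arm shares of mir-22 are given as descriptions, without a test. Small RNA was sequenced from splenic CD4+CD62L+ naive helper T cells of female C57BL/6 mice after culture, as 1 library of control cells (Th0) and 1 of cells cultured toward the interleukin-17-producing Th17 state. The medium of both groups contained 10% serum, anti-CD28 (1 µg/ml), anti-IL-4 (5 µg/ml) and anti-IFN-γ (5 µg/ml). The Th17 group alone received anti-IL-2 and anti-IL-12 (5 µg/ml for both antibodies), TGF-β (2 ng/ml), IL-6 (40 ng/ml), IL-1β (10 ng/ml) and IL-23 (40 ng/ml), and was kept for 6 to 7 days. The sources used here do not give the age of the mice, the number pooled or the duration of the Th0 culture. Culture time and Th17 conditions therefore cannot be told apart. Triplicates are named in the design, but each group is 1 column of reads here, and no value could be set against the spread of replicate cultures.

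A miRNA is processed from a hairpin whose arms form a short duplex. Usually the strand of one arm, the guide, is kept by an Argonaute protein and directs it to mRNAs that pair with the seed, bases 2 to 8 of the miRNA, while the strand of the other arm, the passenger, is mostly degraded. miR-22-3p is the guide of mir-22. It is known to repress Tet2, an enzyme that oxidizes methylated DNA, and Hdac4, a histone deacetylase, and in antigen-presenting cells of mice it has been linked to Th17-dependent lung inflammation. miR-22-5p is the passenger.

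The sequences of the hairpin and of both arms are shown because the arms compared below are the 2 strands of this duplex. They are from RefSeq (GRCm38.p6, the assembly also called mm10). In the hairpin the capitals mark the 2 mature arms. In the mature sequences they mark the seed.
mir-22 hairpin: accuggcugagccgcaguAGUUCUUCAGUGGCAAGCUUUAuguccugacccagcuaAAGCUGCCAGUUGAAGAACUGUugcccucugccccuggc
miR-22-5p: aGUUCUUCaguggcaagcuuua
miR-22-3p: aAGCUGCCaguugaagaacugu
Both arms are 22 bases long and start with A. In the hairpin of 95 bases they are separated by 16 bases. In the structure predicted by RNAfold (-41.9 kcal/mol), 19 of the 22 bases of the 5p arm pair with the 3p arm, 1 of them as a G-U pair, and each arm has 2 bases beyond the end of the duplex. The first 4 bases of either arm are all paired. The 7 bases of the miR-22-5p seed have their exact complement at bases 13 to 19 of miR-22-3p, in capitals here.
miR-22-3p, complement of the 5p seed: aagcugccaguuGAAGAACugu
The seed of miR-22-3p has no exact complement in miR-22-5p. The names of 935 of the 1125 listed miRNAs matched a RefSeq mature sequence, out of 1679 distinct names there. Among those names no other miRNA had the seed of either arm.

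The hairpin lies on the plus strand of chromosome 11 (75463716 to 75463810), with miR-22-5p at 75463734 to 75463755 and miR-22-3p at 75463772 to 75463793. In GENCODE M21 it is inside exon 2 of both transcripts of Mir22hg (75461539 to 75466676), a noncoding gene that serves as its primary transcript. It is thus exonic, not intronic. In Mir22hg-202 that exon runs from 75463693 to 75463857.

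The guide, miR-22-3p, was among the most abundant miRNAs of both libraries. It had 521527 reads of 8358010 in Th0 and 901359 of 11975371 in Th17, where reads are those listed for any miRNA. In CPM, counts scaled to a library of listed reads of fixed size, this was 62399 in Th0 and 75268 in Th17, and in the authors' TPM values 57481 and 68961. The share it took of the listed reads was 6.24% in Th0, with a 95% interval from 6.22 to 6.26%. In Th17 the share was 7.53% (7.51 to 7.54%), 1.29 percentage points more. All intervals are exact (Clopper-Pearson) for independent reads and cover counting error only, not the spread between cultures. Reads copied by PCR are not independent molecules, so the intervals may be too narrow.

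miR-22-3p had rank 5 in Th0 and rank 3 in Th17. In Th0 the miRNA just above it was miR-191-5p, a miRNA abundant in many blood cells, at 7.36% of the reads (7.34 to 7.37%), and just below it was miR-142a-5p, from a hairpin specific to blood cells, at 5.83% (5.82 to 5.85%). In Th17 miR-22-3p had passed miR-191-5p, which stood at 6.84% (6.82 to 6.85%), and miR-92a-3p, listed for both hairpins mir-92a-1 and mir-92a-2. miR-92a-3p stood at 4.90% (4.89 to 4.92%) after 9.76% in Th0. miR-27b-3p, which was next above miR-22-3p in Th17, had 10.6% (10.60 to 10.63%). None of these counting intervals overlapped that of miR-22-3p in the same library.

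The passenger, miR-22-5p, was read far less often. It had 332 reads in Th0 and 548 in Th17, or 39.7 and 45.8 CPM, and 36.6 and 41.9 in the authors' TPM. It ranked 213 of 986 listed miRNAs in Th0 and 195 of 1012 in Th17. It took 0.0040% of the listed reads of Th0 (0.0036 to 0.0044%) and 0.0046% of those of Th17 (0.0042 to 0.0050%). The CPM of both arms was higher in the Th17 library than in the Th0 library.

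**Figure D1:**
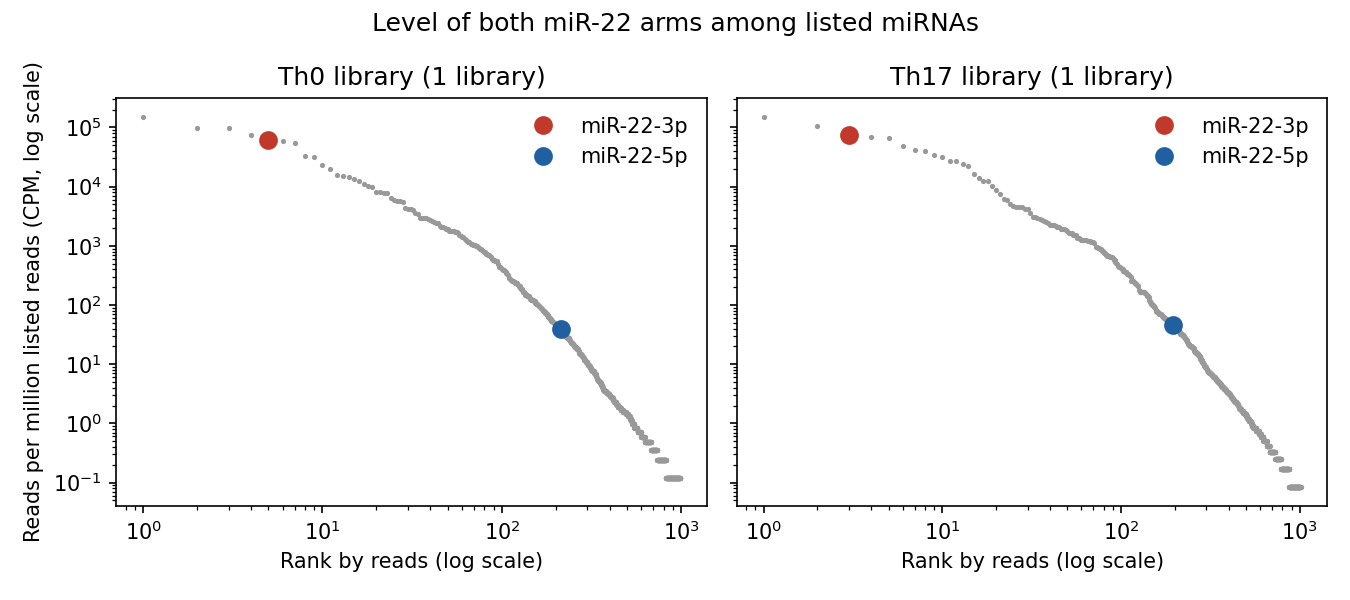
Level in CPM (counts scaled to the listed reads, log axis) of every listed miRNA against its rank (log axis), in the Th0 library (left, 986 miRNAs) and the Th17 library (right, 1012 miRNAs). Grey points are single miRNAs, and the coloured points show miR-22-3p at ranks 5 and 3 and miR-22-5p at ranks 213 and 195.

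Both arms had a small ratio of Th17 over Th0. miR-22-3p was 1.21-fold higher in Th17 (interval 1.20 to 1.21), a log2 ratio of 0.27. miR-22-5p was 1.15-fold higher (1.00 to 1.32), a log2 ratio of 0.20 (0.0049 to 0.41). Summed over both arms the hairpin had 521859 reads in Th0 and 901907 in Th17, 1.21-fold higher (1.20 to 1.21). The interval of the guide, on at least 521527 reads in each library, is narrow, and that of the passenger reaches almost to 1.

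A mean of 10 CPM or more was reached by 298 miRNAs. Of these, 20 (6.71%) were higher in Th17 by 2-fold or more and 39 (13.1%) were lower by 2-fold or more, with intervals that exclude 1. With the 10 most abundant miRNAs left out of the totals the counts were 15 and 48. Neither arm of mir-22 was among the 20 or the 39. The counting interval lay above 1 for 121 of the 298 (40.6%) and below 1 for 142 (47.7%), and both arms of mir-22 belong to the 121. Since the members were chosen with this contrast, nothing is read from that count. The median log2 ratio of the 298 was -0.080, so miR-22-3p lay 0.35 and miR-22-5p 0.28 above it. A higher ratio was measured for 99 of the 298 miRNAs (33.2%) than for miR-22-3p and for 106 (35.6%) than for miR-22-5p. Both arms thus lie above the median and below the miRNAs past 2-fold.

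The ratio of either arm depends on the total it is scaled to. miR-92a-3p held 9.76% of the Th0 reads and 4.90% of the Th17 reads. With miR-92a-3p left out of both totals, an alternative added after the data were seen, the log2 ratio of miR-22-3p was 0.19 and that of miR-22-5p 0.13. With the 10 most abundant miRNAs left out of both totals it was 0.14 for miR-22-3p, and 0.074 for miR-22-5p with an interval from -0.13 to 0.28 that spans 0. Under the authors' own totals the interval for miR-22-5p also reached 0 (-0.0030 to 0.40). The direction of both arms was the same under the 7 alternatives run, including TMM and DESeq2 scaling.

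**Figure D2:**
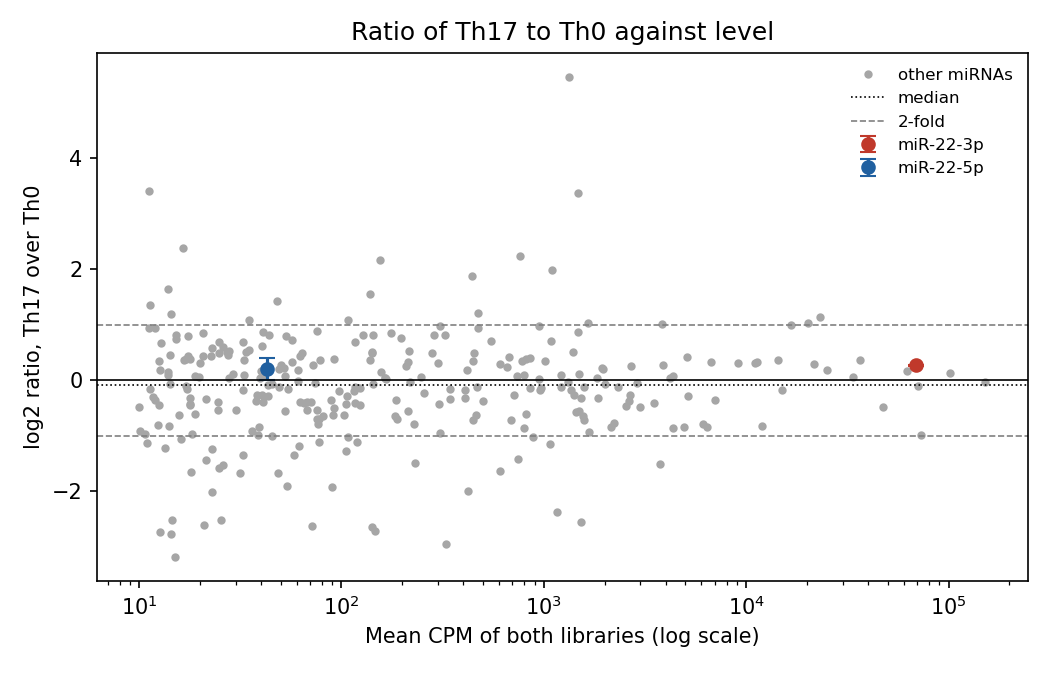
Log2 ratio of Th17 over Th0 against mean CPM (log axis) for the 298 miRNAs whose mean was 10 CPM or more. Bars on the 2 coloured points are 95% counting intervals, and the lines mark 0, the median of -0.080 (dotted) and 2-fold (dashed). miR-22-3p (0.27) and miR-22-5p (0.20) lie close to each other in ratio and far apart in level.

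miR-22-3p is one of 19 miRNAs whose mean was 10000 CPM or more. The interval lay above 1 for 13 of them and below 1 for 6, the median log2 ratio was 0.18, and 8 had a higher ratio than miR-22-3p. Between 20 and 100 CPM, the range of miR-22-5p, 34 of 92 miRNAs had intervals above 1, 44 below and 14 spanning 1, with a median of -0.13. In that range 2 were at least 2-fold higher and 16 at least 2-fold lower. Intervals below 1 were thus more frequent than intervals above 1 at the level of miR-22-5p, and less frequent at the level of miR-22-3p.

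Almost all reads of the mir-22 hairpin came from the guide arm. How far the read shares reflect the choice of strand from the duplex was not tested. The 3p arm had 99.94% of the reads of the hairpin in Th0 (99.93 to 99.94%) and 99.94% in Th17 (99.93 to 99.94%). There were 1571 reads of miR-22-3p for each read of miR-22-5p in Th0 (1411 to 1755) and 1645 in Th17 (1513 to 1792). The 5p share of the Th0 reads was 0.064% (0.057 to 0.071%) and that of the Th17 reads 0.061% (0.056 to 0.066%), and the intervals overlap. The shift of the 3p share was 0.0029 percentage points.

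A shift of at least 10 percentage points between intervals that do not overlap was counted for 4 of 178 hairpins (2.25%) with at least 100 reads in each library, and mir-22 was not among them. The median absolute shift of the 178 was 0.46 points. The 178 include hairpins with only 1 arm listed, such as mir-374b and mir-669c, whose shift is 0 by construction. This lowers both the share counted and the median. Of 116 hairpins with at least 1000 reads in each library, 2 had a smaller absolute shift than mir-22. They are mir-182 and mir-374b, and mir-374b has only its 5p arm listed, so its shift is 0 by construction. A passenger share this small moves by few points even when it changes by a large factor, so the arms were also compared by their folds.

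The fold of miR-22-5p was 0.96 times that of miR-22-3p (exact conditional 95% interval 0.83 to 1.10), a log2 difference of -0.066. At these read numbers no difference between the arms was detected, and the interval allows a fold of the passenger from 0.83 to 1.10 times that of the guide. Of 80 hairpins with at least 100 reads of each arm in each library, the same interval excluded 1 for 59 (73.8%) and contained it for 21, mir-22 included. The median absolute log2 difference between the arms was 0.32 over the 80, and 10 hairpins had a smaller one than mir-22. Both arms were higher in Th17 for 27 of the 80 hairpins, both lower for 30, and of opposite sign for 23. The width of the interval depends on the reads of the rarer arm, so these counts mix precision and size.

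Most hairpins were less one-sided. Among the 116 hairpins the median share of the rarer arm was 1.20%, and 9 hairpins had a smaller one than mir-22, averaged over both libraries. The 116 include mir-374b, whose share is 0 because only 1 of its arms is listed. Among the 115 with both arms listed, mir-22 had rank 9 from the smallest share. Of the 45 hairpins whose main arm was 3p, with a median 3p share of 98.8%, mir-22 had rank 4 by 3p share. In reads, its rarer arm was not scarce. At a mean of 42.7 CPM, miR-22-5p ranked 50 of 116 among rarer arms, whose median was 26.6 CPM.

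Among the 10 most abundant hairpins mir-22 had rank 5 by mean CPM. In 7 of these 10 the 5p arm is the main one, and the 3p arm is in mir-27b, the mir-92a pair and mir-22. Among those 3, mir-22 had the smallest passenger share in both libraries. The rarer arm of mir-27b took 0.21% in Th0 and 0.34% in Th17. That of the mir-92a hairpins took 0.87% and 1.05%. Of the 5p-dominant hairpins, mir-26a had a rarer-arm share of 0.047% and 0.051%, mir-191 of 0.10% and 0.11%, and mir-182 of 0.011% and 0.014%. mir-142a was the least one-sided of the 10, at 3.62% in Th0 and 1.72% in Th17.

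**Figure D3:**
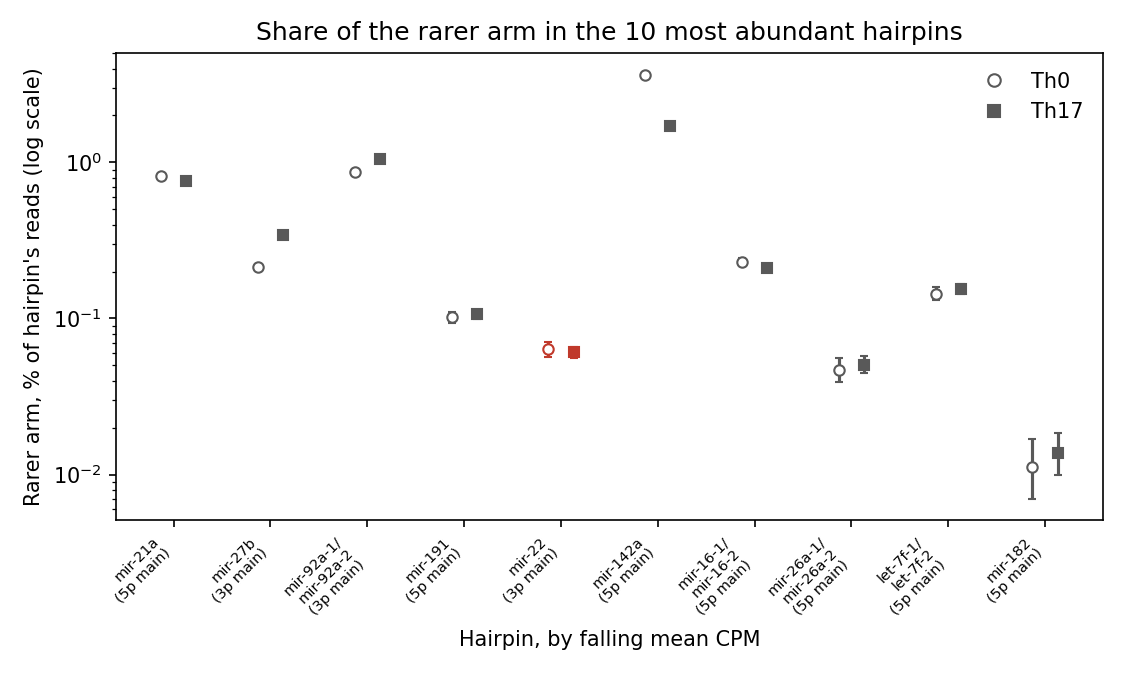
Share of the rarer arm in the reads of each of the 10 most abundant hairpins (log axis), with open circles for Th0, squares for Th17 and bars for exact 95% binomial intervals. mir-22, in red, lies at 0.064% and 0.061% with overlapping intervals, below the other 2 hairpins whose main arm is 3p.

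The hairpins nearest to mir-22 in mean 3p share, among the 116, were mir-107, the mir-103 pair, mir-326, mir-320 and mir-101b. Their 3p shares ran from 99.87% to 99.99% over both libraries. All 5 were far less abundant, from 157 CPM for mir-326 to 5095 CPM for the mir-103 pair, against 68876 CPM for mir-22. The rarer arm of these hairpins had from 1 to 21 reads in a library, so their shares are less precise than that of mir-22. For mir-326 the Th17 interval ran from 99.63 to 99.99%.

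The miRNAs nearest to miR-22-3p in log2 ratio, among those whose mean was 100 CPM or more, were miR-30c-5p (0.27), miR-322-5p (0.25), let-7c-5p (0.25), let-7i-5p (0.29) and miR-652-3p (0.29). Nearest to miR-22-5p were miR-140-3p (0.21), miR-23b-3p (0.22), miR-182-5p (0.18), miR-107-3p (0.18) and miR-142a-5p (0.18). Likeness here is the absolute difference in 1 log2 ratio over 2 libraries, so it describes these libraries and no more. Of the 5 nearest to miR-22-3p, the interval of let-7i-5p (1.213 to 1.228) did not contain its fold of 1.206, and those of the other miRNAs did.

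Of the miRNA genes listed here, the closest to Mir22 upstream were Mir132 (75173682 to 75173747) and Mir212 (75173388 to 75173478), which lie side by side 290 kb away on the same strand and respond to cAMP signalling. All 4 of their miRNAs were higher in Th17, from 1.30-fold for miR-212-3p (1.26 to 1.35) to 1.42-fold for miR-132-3p (1.39 to 1.46), and none of the intervals overlapped that of miR-22-3p. The closest downstream was Mir423 (77078064 to 77078172, minus strand), 1614 kb away. Its arms were lower in Th17, miR-423-3p 1.20-fold (1.18 to 1.22) and miR-423-5p 1.38-fold (1.35 to 1.40).

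Other miRNAs reported to target Tet2 went both ways. All 9 of that list were listed in both libraries and 7 had a mean of at least 10 CPM, of which 5 had an interval above 1 and 2 below, beside 40.6% above and 47.7% below over all 298. Their median log2 ratio was 0.33. Past 2-fold was miR-29a-3p, at 2.04-fold (2.03 to 2.06), and 0 of the 7 were past it with the 10 most abundant miRNAs, or miR-92a-3p, left out of the total. miR-26a-5p was 1.29-fold higher (1.29 to 1.30), miR-26b-5p 1.26-fold (1.24 to 1.27) and miR-101b-3p 1.11-fold lower (1.07 to 1.14). miR-29b-3p and miR-29c-3p, of the same family as miR-29a-3p, were named after their values were seen. miR-29b-3p was 1.76-fold higher (1.67 to 1.85) and miR-29c-3p 1.55-fold lower (1.49 to 1.62). miR-101a-3p, which was between 716 CPM in Th0 and 759 CPM in Th17, was 1.06-fold higher (1.03 to 1.10), and its log2 ratio of 0.084 turned to -0.046 without the 10 most abundant in the total. With the 10 most abundant miRNAs left out of the total, the median over the 298 moved to -0.21, and that of the Tet2 list to 0.20. Over all 298 miRNAs as reported it was -0.080. The list was chosen with earlier results of these data known.

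The 2 targets named above show what the miR-22-3p seed can pair with. The complement of the seed, GGCAGCT, was searched on the transcript strand of the longest 3' UTR per gene in GENCODE M21 (mm10), and each of the 2 genes had 1 match. The match is in capitals within the 22 bases that would face the miRNA.
Tet2: accgaaagagaataGGCAGCTg
Hdac4: tgcacgccaaactcGGCAGCTt
They lie on chromosome 3 (133465322 to 133465343, minus strand) and chromosome 1 (91929849 to 91929870, minus strand). The same 7 letters occur in 2688 of 21020 genes with such a 3' UTR (12.8%), and both UTRs, at 3058 and 4568 bases, are longer than the median of 961 bases. The complement of the miR-22-5p seed, GAAGAAC, occurs in 10.0% of the genes and in neither of the 2. A match is a description of letters, and mRNA levels were not measured in these libraries.

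The cells were checked against the miRNAs of other cell types. The 5 T cell and lymphocyte miRNAs together had 95954 CPM (Th0) and 133180 CPM (Th17). Of these sums miR-142a-5p, from a hairpin specific to blood cells as a whole, had 58347 CPM (Th0) and 65898 CPM (Th17). Much of each sum thus does not tell T cells from other blood cells. The interval lay above 1 for 4 of the 5, and miR-142a-3p was 1.90-fold lower in Th17 (1.86 to 1.95). Over the 298 miRNAs counted above, 40.6% had such an interval above 1 and 47.7% had one below 1. Intervals that exclude 1 are thus common in these libraries, and no rise of T cell miRNAs is read from the 4 of 5. The myeloid pair summed to 3.35 and 6.93 CPM, the erythroid pair to 0.72 and 2.17 CPM, the endothelial pair to 191 and 85.9 CPM and the 5 epithelial miRNAs to 387 and 208 CPM. The defining myeloid miRNA, miR-223-3p, had 28 and 81 reads. The muscle list, with miR-1a-3p at 0 in both libraries, the liver miRNA miR-122-5p and the 2 neural miRNAs together had 14.1 CPM (Th0) and 6.01 CPM (Th17). Most of this was the neural miR-9-5p, at 13.9 CPM (Th0) and 4.76 CPM (Th17). miR-22 is made in many cell types, and the part of these cells in its level was not tested. In bulk RNA, more cells with a miRNA and more of it per cell cannot be told apart. The libraries hold no mRNA, so Th17 cytokines and transcription factors could not be used to check the labelled state.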

How the data were processed

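Small RNA libraries of Th0 and Th17 cells, 1 per group, were analysed from tables of mature miRNAs. The authors deposited whole-number counts of reads per miRNA, not normalized, and TPM values, which per the file headers belong to the same libraries and equal the counts divided by 1 total per library. The genome build named is mm10, according to the submitters' processing notes. The sources used here do not give the aligner, the miRNA release or how triplicates were combined. A miRNA missing from 1 table was taken as 0 (the lowest count in either table is 1). The depth was 8358010 listed reads for Th0 and 11975371 for Th17, and 7.88% and 8.38% of the larger totals implied by TPM belong to no listed miRNA.

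Counts were scaled to the listed reads (CPM), without a pseudocount. Intervals of ratios are exact at 95% for independent reads, conditional on the sum of both counts (scipy 1.17.1). They were tested on simulated counts with counting error only. That test cannot show how they hold with PCR copies or spread between cultures. No test of the conditions was possible. Alternatives were TMM factors (edgeR 4.0.16), DESeq2 1.42.0 size factors, TPM, totals without abundant miRNAs, other filters and a 1.5-fold threshold. Precursors that share a mature miRNA were joined. The hairpin was folded with RNAfold 2.7.2. Named miRNAs were the members, the most abundant, those nearest in ratio or arm share, and up to 5 of each list by mean CPM. Gene neighbours, marker miRNAs and the miRNAs named as chosen later were added. Another list is not reported here. The members and lists were chosen with earlier results of these data known, and the 2 target genes after the tables had been opened.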

Additional observations from a re-analysis of the deposited data

How the results depend on the processing

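No paired analysis was possible because each group is 1 library. The log2 ratio of miR-22-3p, 0.27 as reported, was 0.28 with TMM factors, 0.35 with DESeq2 size factors, 0.14 without the 10 most abundant miRNAs in the total, 0.29 without both miR-22 arms, 0.26 from the authors' TPM and 0.19 without miR-92a-3p, the last chosen after seeing the data. The sum of both arms gave 0.28, 0.35, 0.14, 0.29, 0.26 and 0.19 under the same alternatives. Adding 0.5 CPM left both at 0.27. miR-22-5p ranged from 0.074 to 0.28, and the share of 3p reads did not depend on the scaling. The count of miRNAs at least 2-fold higher, 20, was 69 without a filter, 13 at a mean of at least 100 CPM and 50 at 1.5-fold, and the count lower, 39, was 100, 15 and 76. By scaling, 20 were higher and 39 lower with TMM factors, 26 and 36 with DESeq2 size factors, and 15 and 48 without the 10 most abundant in the total. With at least 1000 reads in each library, 2 hairpins shifted by 10 points or more, not 4, on fewer hairpins tested. Depth limits the passenger, with 332 and 548 reads, to an interval from 1.00 to 1.32 for its fold.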
